A study of Mus musculus with 38 samples.

Results

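Glycolysis and the response to low oxygen were followed through 36 genes in mouse T helper cells: glucose and lactate transporters, glycolytic enzymes, regulators of glycolytic flux, the oxygen-sensing genes Hif1a, Egln1 and Egln3, other genes of the hypoxia response, and Myc. They were chosen by name for their function. All 36 were listed at a single locus among the 23700 entries of each expression table. Th1 cells make interferon-gamma and Th2 cells make interleukin-4 (IL-4). The starting material was naive CD4 T cells, sorted from the spleens and lymph nodes of C57BL/6J mice and polarized in vitro. Ages are not in the labels.

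RNA was sequenced from 14 libraries in 13 groups. Without a vector, at day 7 and after 2 h on plate-bound CD3/28 antibody with IL12 or IL4, there were wild-type (WT) Th1 cells (2 libraries), STAT4<tm1> Th1 cells (STAT4 KO), Tbet<tm1> Th1 cells (T-bet KO), WT Th2 cells and Stat6<tm1> Th2 cells (STAT6 KO). Retroviral cultures carried either a control vector or one for a lineage factor, T-bet in Th1 cells (WT, STAT4 KO) or GATA3 in Th2 cells (WT, STAT6 KO). They were stimulated with anti-CD3/CD28 for 16 h before the virus (backbone pMY-IRES-hNGFR). The labels give 5 days of culture for them, while another label gives the Th1 vector cultures 7 days and the restimulation. For the Th2 vector cultures no restimulation is given. No sort of transduced cells is stated. All libraries are bulk RNA, so fewer cells of a type and less RNA per cell cannot be told apart. Nothing in the labels gives each library its own animal or culture, so the p-values here speak for the spread among these libraries alone, and that spread may be technical. ChIP samples are not analysed here.

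Glycolysis turns glucose into pyruvate and lactate, and activated T cells use it heavily while they divide and make cytokines. HIF-1 alpha, the protein of Hif1a, is hydroxylated by the prolyl hydroxylases of the Egln genes when oxygen is present and is then degraded. When it is stable, for instance at low oxygen or after T cell receptor stimulation, it pairs with ARNT and raises transcription of most glycolytic genes through sites with the core ACGTG or GCGTG. Egln3 is itself a HIF target, and Myc drives many of the same glycolytic genes in newly activated T cells. Downstream of the IL-12 receptor, Th1 cells depend on STAT4; downstream of the IL-4 receptor, Th2 cells depend on STAT6. T-bet is the master regulator of the former lineage, GATA3 of the latter.

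Libraries held an estimated 21890000 to 38520000 fragments in genes, and 9793 to 10374 genes reached 1 FPKM (fragments scaled to transcript length and to mapped fragments). Standing apart from the remaining 12 were WT Th1 replicate 2 and T-bet KO. Their correlation with each other over log2 values was 0.976, but 0.676 to 0.801 with the rest, and small RNA made up 20.871% and 22.337% of their FPKM against 4.593% to 7.793%. Tests used the other 12 libraries. The targeted genes were read first. Stat4 had 17.5, 7.57 and 6.71 FPKM in the STAT4 KO libraries and 60.8, 41.0 and 37.1 FPKM in the matching WT Th1 libraries, though WT Th1 replicate 2 had 15.1 FPKM. Stat6 had 34.6, 36.1 and 23.3 FPKM in the STAT6 KO libraries against 35.6, 65.9 and 48.0 FPKM in WT Th2, which checks nothing where the deleted part is not given. Tbx21, the T-bet gene, had 4.19 FPKM in T-bet KO. T cell markers (Cd3d, Cd3e, Cd3g, Cd4, Cd2, Cd5) summed to 638 to 1534 FPKM in the 14 libraries. B cell markers stayed at or below 1.46 FPKM in sum, NK markers at or below 0.194 and red cell markers at or below 0.07, while myeloid markers reached 10.9.

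In these cultures 35 of the 36 genes were at 1 FPKM or more in every library, 18 at 10 or more and 6 at 100 or more. The exception was Pfkfb4, which makes an enzyme that sets fructose-2,6-bisphosphate, a switch of glycolytic flux, and which lay between 0.514 and 2.31 FPKM in the 12 libraries. Abundance per transcript length was highest for Aldoa (aldolase A), Pkm2 (pyruvate kinase), Ldha (lactate dehydrogenase A) and Mif, a cytokine gene of the hypoxia response, with medians of 679.956, 598.951, 708.858 and 505.501 FPKM over the 12 libraries. For these genes and for Eno1, Gapdh, Pgk1, Tpi1 and Pgam1 the counting may have split reads with near-identical copies elsewhere in the genome, so their levels are uncertain. At least 58 estimated fragments stood behind each member value. The median distance from a value to its upper bound was 2.787% of the value, and the largest 26.261%, which covers counting error only.

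The genes differed much in how far they moved. Egln3 (mm9 chr12:55279968-55304861) ranged 22.4-fold over the 12 libraries, Slc2a3, a glucose transporter gene, 15.8-fold, Ero1l, an endoplasmic reticulum oxidase gene, 14.3-fold, Bnip3, a mitophagy gene, 13.6-fold and Aldoc (aldolase C) 13.3-fold. Kdm3a, a histone demethylase gene, and Eno3 (enolase 3) ranged least, 1.65-fold and 1.71-fold. Of the 16 enzymes, 10 were lowest in STAT6 KO Th2 cells without a vector. The map of the 36 genes shows these libraries side by side.

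**Figure D1:**
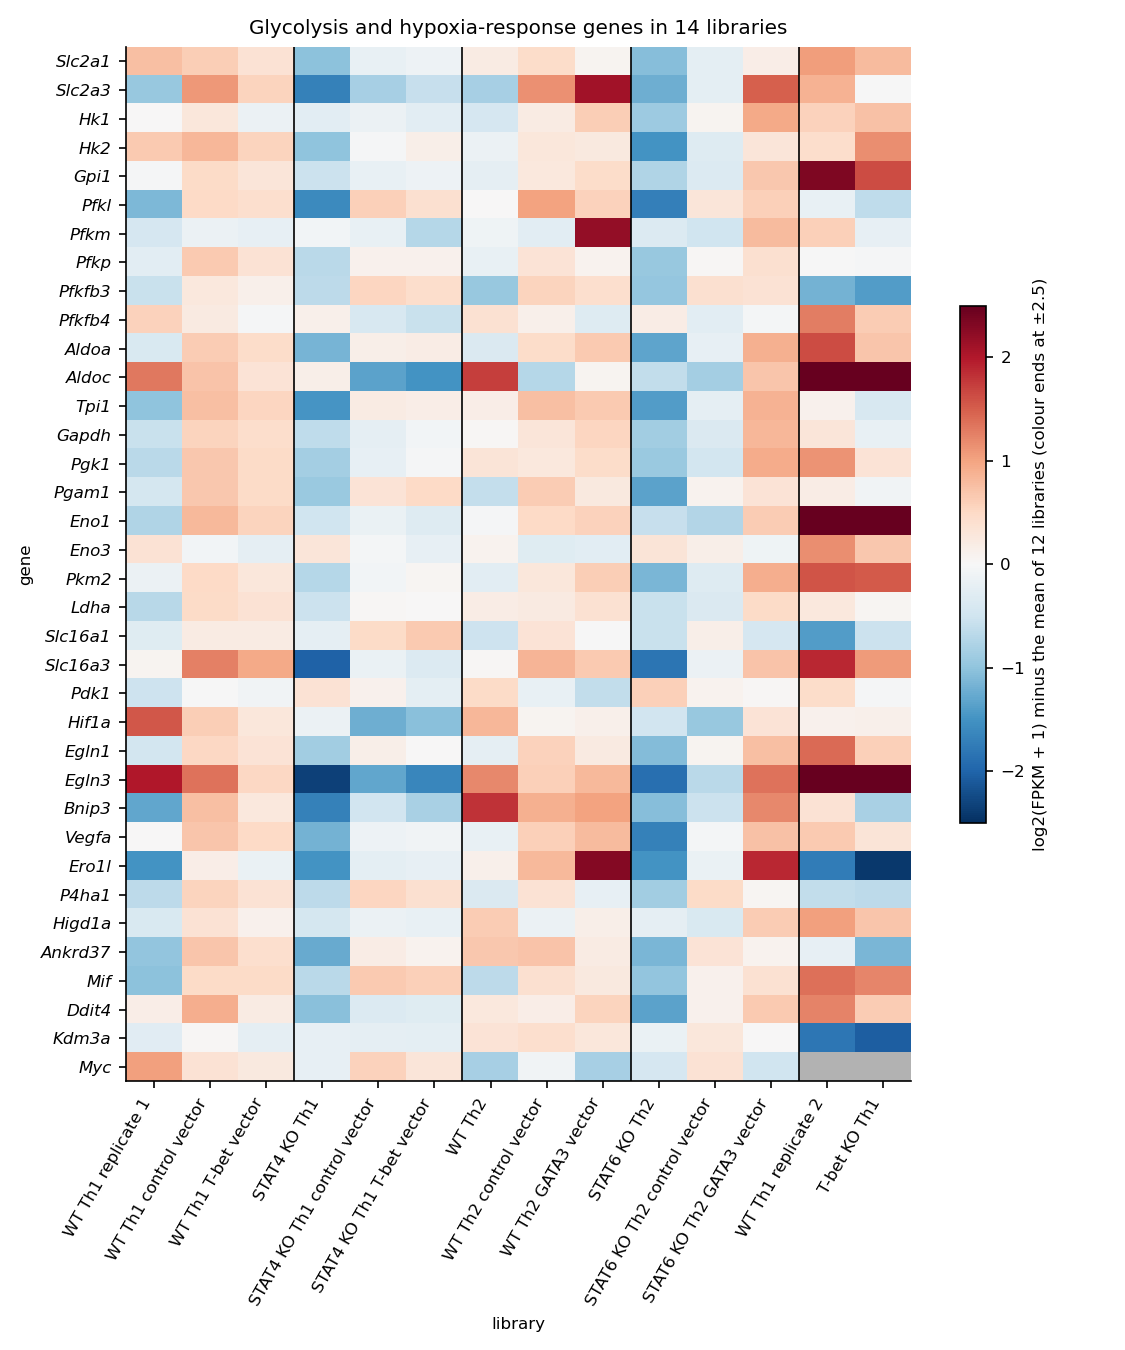
Levels of the 36 genes in the 14 libraries, as log2(FPKM + 1) minus each gene's mean over the 12 libraries used in the tests, with colours ending at a difference of 2.5. The STAT6 KO Th2 library without a vector is low for most enzymes, Egln3 spans the widest range (8.52 to 191 FPKM in the 12 libraries), and the 2 libraries that stand apart are set at the right, with Myc left blank there for a failed estimate.

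The first question was what the loss of STAT4 did to these genes in Th1 cells. Hif1a, Egln3, the lactate exporter Slc16a3 (MCT4) and the glucose transporter Slc2a3 (GLUT3) fell, and none of the 36 rose. All values that follow as estimates are differences in log2(FPKM + 1) with their standard error, from a limma fit over 12 libraries and 11048 genes, with p-values adjusted by Benjamini-Hochberg (BH) over all of them and a call at an adjusted p under 0.05. This scale understates the change of low genes. Over all genes, 3.0% were called lower and 1.66% higher in STAT4 KO, against 4 of 36 and 0 of 36 members. Estimates were below 0 for 32 of the 36 members and for 45.2% of all genes, with medians of -0.43 and 0.04. At an unadjusted p under 0.05 there were 11 members, where 23.5% of all genes were.

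Hif1a (chr12:75008854-75048517) had 439, 228 and 180.1 FPKM in WT Th1 cells without a vector, with the control vector and with the T-bet vector, and 134, 63.1 and 71.5 FPKM in the STAT4 KO counterparts. All WT values lay above all STAT4 KO values. The estimate was -1.62 ± 0.28 (limma, BH-adjusted p = 0.0275). Egln3 had 191, 121 and 67.3 FPKM in WT and 8.52, 18.6 and 14.5 FPKM in STAT4 KO. Again the groups did not overlap, and the gap was widest in the cells without a vector, -4.33 against -2.64 and -2.14 in the vector pairs. Its estimate was -3.04 ± 0.63 (limma, BH-adjusted p = 0.0414). Egln1, the other prolyl hydroxylase gene among the members, had an estimate of -0.37 ± 0.22 (limma, BH-adjusted p = 0.354).

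Of the 4 transporters, 2 fell. Slc16a3 (chr11:120809798-120820314) had 31.5, 73.9 and 58.7 FPKM in WT and 6.72, 26.6 and 23.8 FPKM in STAT4 KO, so each KO library was below every WT library. The estimate was -1.59 ± 0.32 (limma, BH-adjusted p = 0.0395). Slc2a3 (chr6:122677827-122692763) had 11.7, 51.3 and 34.9 FPKM in WT and 6.59, 12.9 and 15.4 FPKM in STAT4 KO. Here the groups overlapped, because WT cells without a vector were as low as the STAT4 KO vector cultures, but each matched pair was lower in the knockout. The estimate was -1.26 ± 0.25 (limma, BH-adjusted p = 0.037). Slc2a1, the gene of the main glucose transporter GLUT1 (chr4:118781350-118809934), had 96.0, 86.5 and 72.9 FPKM in WT and 27.3, 49.5 and 51.4 FPKM in STAT4 KO. Its groups did not overlap, yet the estimate of -1.02 ± 0.30 did not pass (limma, BH-adjusted p = 0.0901). Slc16a1, the gene of the lactate transporter MCT1, had an estimate of 0.28 ± 0.12 (limma, BH-adjusted p = 0.217). Within the MCT1 and MCT4 pair, the share of Slc16a3 in the summed FPKM was 41.44%, 53.64% and 47.85% in WT and 12.37%, 25.55% and 21.26% in STAT4 KO.

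None of the 16 glycolytic enzymes passed the test, although all 16 estimates were below 0, with a median of -0.45. Aldoc had the lowest, -1.69 ± 0.48 (limma, BH-adjusted p = 0.0868). It had 20.8, 13.4 and 10.0 FPKM in WT and 8.71, 2.44 and 2.10 FPKM in STAT4 KO, with no overlap. Hk2, the inducible hexokinase that traps glucose in the cell (chr6:82675021-82724448), had 44.6, 50.8 and 41.9 FPKM in WT and 13.4, 27.7 and 31.0 FPKM in STAT4 KO. Its estimate was -0.98 ± 0.29 (limma, BH-adjusted p = 0.0958). Ldha was higher in STAT4 KO without a vector, 455 against 406 FPKM, and lower with the control vector, 667 against 913 FPKM. Its estimate was -0.21 ± 0.26 (limma, BH-adjusted p = 0.663).

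Among the regulators of flux, Pfkfb3, Pfkfb4 and Pdk1 had estimates of 0.16 ± 0.14, -0.53 ± 0.14 and 0.29 ± 0.24, none of them called (limma, BH-adjusted p = 0.53, 0.0725 and 0.51). Pdk1 makes a kinase that keeps pyruvate out of mitochondria. Of the other 9 hypoxia-response genes, 8 had estimates below 0 and none passed. Vegfa, the angiogenic growth factor gene (chr17:46153943-46169326), had 13.6, 22.5 and 19.5 FPKM in WT and 5.39, 12.1 and 12.6 FPKM in STAT4 KO. The estimate was -0.87 ± 0.25 (limma, BH-adjusted p = 0.0912). Myc had 609, 381 and 351 FPKM in WT and 257, 441 and 368 FPKM in STAT4 KO, lower without a vector and not in the vector cultures.

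**Figure D2:**
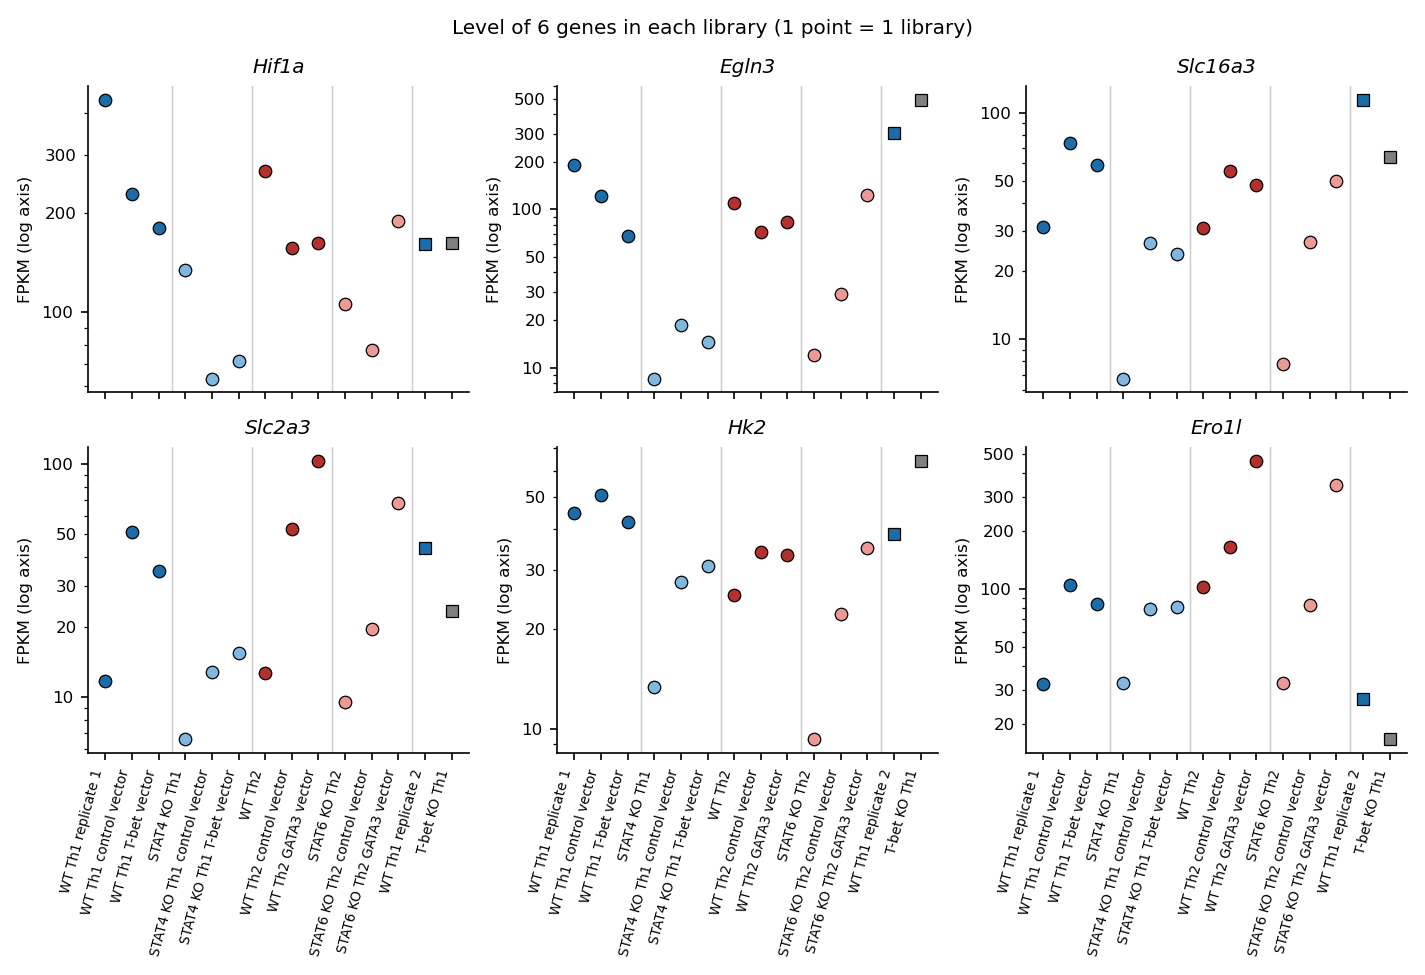
FPKM on a log axis in each library (1 point is 1 library) for Hif1a, Egln3, Slc16a3, Slc2a3, Hk2 and Ero1l, with WT in dark and knockouts in light colours and the 2 libraries that stand apart as squares. Hif1a, Egln3, Slc16a3, Slc2a3 and Hk2 are lower in STAT4 KO than in WT in all 3 pairs, and Hif1a, Egln3, Slc16a3 and Hk2 are lower in STAT6 KO without a vector and with the control vector but not with the GATA3 vector.

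In every one of the 3 pairs, 6 members were lower by 1.5-fold or more in STAT4 KO: Slc2a3, Aldoc, Slc16a3, Hif1a, Egln3 and Vegfa, against 3.09% of all genes. No member was at least 1.5-fold higher in every pair (0.848% of all genes). At least 2-fold lower were 9 members without a vector, 7 with the control vector and 6 with the T-bet vector, where 4.37%, 3.32% and 2.76% of all genes were, and no member was 2-fold higher (3.64%, 0.909% and 0.846% of all genes). The 4 calls were sensitive to single libraries. Each was lost on leaving out any of the STAT4 KO libraries or either WT Th1 vector library, and also without the STAT6 KO Th2 control-vector library. The calls of Hif1a, Egln3 and Slc16a3 were lost without WT Th1 replicate 1 as well, those of Egln3, Slc16a3 and Slc2a3 without the WT Th2 control-vector library, and that of Slc2a3 without either GATA3 vector library. Over all alternatives tried, the adjusted p of Hif1a ranged from 0.00982 to 0.156 and that of Egln3 from 0.0232 to 0.174, of Slc16a3 from 0.0182 to 0.163 and of Slc2a3 from 0.0282 to 0.176, and no estimate turned. With a block for each matched WT and knockout pair, added after the data were seen, Egln3 was no longer called (limma, BH-adjusted p = 0.0539) and the other 3 were. In the same libraries the Th1 markers Ifng, Tbx21, Il12rb2 and Cxcr3 summed to 8665, 4231 and 5537 FPKM in WT and to 163, 88.2 and 1947 FPKM in STAT4 KO, and T cell markers to 1351, 824 and 811 FPKM in WT and 1230, 737 and 756 FPKM in STAT4 KO. Of 20 genes of early T cell receptor response, Jun and Junb fell in STAT4 KO and none rose. The median estimate of the 20 was -0.28, yet their summed FPKM was higher in each STAT4 KO library. The sums were 8985, 4595 and 4055 FPKM in WT and 9840, 5519 and 5933 FPKM in STAT4 KO. The part of these in the results was not tested.

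In Th2 cells without STAT6, most transporters, enzymes and oxygen-sensing genes had values below WT without a vector and with the control vector, and most did not with the GATA3 vector. Over the 3 pairs no member was called (limma with BH adjustment), where 4.14% of all genes were, 2.62% higher and 1.52% lower. There were 11 members at an unadjusted p under 0.05, where 20.3% of all genes were. Estimates were below 0 for 33 of 36 members and 43.2% of all genes, with medians of -0.44 and 0.04. The lowest adjusted p belonged to Ero1l, which makes an oxidase that helps fold secreted proteins (chr14:45902762-45938247), at -1.01 ± 0.23 (limma, BH-adjusted p = 0.0528). It had 102, 165 and 463 FPKM in WT Th2 cells without a vector, with the control vector and with the GATA3 vector, and 32.5, 82.7 and 348 FPKM in STAT6 KO, so each KO library was below its partner. Over the alternatives its adjusted p ranged from 0.0316, without the WT GATA3 vector library, to 0.213, without the STAT6 KO control-vector library. Leaving out either GATA3 vector library left the no-vector and control-vector pairs to set the estimate. These 2 fits gave the same estimates, since the remaining GATA3 vector library was fitted exactly, so they are not separate results. In them 4 members were called lower (Slc16a3, Hif1a, Egln1 and Ero1l), with a member median of -0.76. Of all genes, 223 of 11044 and 220 of 11049 were called lower. The fit on the no-vector and control-vector libraries alone had the same member median. It called 1 member lower, and 152 of 11051 genes. For Hif1a the estimate without either GATA3 vector library was -1.17 ± 0.20 (limma, BH-adjusted p = 0.0316 without the WT library and 0.0322 without the STAT6 KO library).

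The pairs were counted one by one, with no test between them. At least 2-fold lower in STAT6 KO were 14 members without a vector (5.37% of all genes), 6 with the control vector (2.22%) and 1 with the GATA3 vector (1.59%), and none was 2-fold higher in any of them (3.84%, 3.2% and 3.31% of all genes). No member was 1.5-fold lower in all 3 pairs (1.53% of all genes) or 1.5-fold higher in all of them (2.69%). The members' medians were -0.85, -0.57 and 0.18, against 0.04, 0.002 and 0.07 over all genes. For the 16 enzymes, 15 were below 0 without a vector and 15 with the control vector, with medians of -0.82 and -0.59. With the GATA3 vector 15 of 16 were above 0, with a median of 0.22. Of all genes, 43.8% and 48.2% were below 0 in the first 2 pairs, and 59.6% were above 0 with the GATA3 vector. Summed, the enzymes made up 0.7635%, 1.217% and 1.316% of the FPKM outside small RNA in the WT Th2 libraries and 0.4175%, 0.8117% and 1.498% in the STAT6 KO libraries. The same sums in Th1 were 0.6479%, 1.287% and 1.15% in WT and 0.5086%, 0.9235% and 0.9183% in STAT4 KO.

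Hif1a shows the order. It had 267, 157 and 162 FPKM in WT Th2 cells and 106, 77.0 and 189 FPKM in STAT6 KO. The KO values were below WT in the first 2 pairs and above it with the GATA3 vector, and the estimate over all pairs was -0.71 ± 0.28 (limma, BH-adjusted p = 0.203). Egln3 had 109, 71.9 and 83.3 FPKM in WT and 11.9, 29.1 and 122 FPKM in STAT6 KO, with pair differences of -3.09, -1.28 and 0.55. Slc16a3 had 30.9, 55.2 and 47.8 FPKM in WT and 7.78, 27.0 and 50.1 FPKM in STAT6 KO. Both were thus lowest in STAT6 KO cells without a vector and level with WT, or above it, where GATA3 was added.

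Slc2a1 and Hk2 gave the same order. Slc2a1 had 65.4, 78.3 and 58.7 FPKM in WT and 26.3, 47.6 and 63.0 FPKM in STAT6 KO. Hk2 had 25.4, 34.2 and 33.3 FPKM in WT and 9.29, 22.2 and 35.0 FPKM in STAT6 KO. Both were below WT in the first 2 pairs and slightly above it with the GATA3 vector. Slc2a3 was below WT with the GATA3 vector too, with 12.7, 52.9 and 104 FPKM in WT and 9.52, 19.6 and 68.0 FPKM in STAT6 KO. Pfkl, the liver-type phosphofructokinase gene, had 33.3, 67.1 and 49.6 FPKM in WT and 9.38, 40.8 and 50.2 FPKM in STAT6 KO. Bnip3 had 58.7, 30.6 and 33.4 FPKM in WT and 7.18, 10.8 and 38.2 FPKM in STAT6 KO. Vegfa had 11.6, 20.9 and 23.8 FPKM in WT and 3.47, 12.9 and 23.0 FPKM in STAT6 KO. With the GATA3 vector, Pfkl and Bnip3 were thus higher in the KO library than in WT and Vegfa lay 0.05 below WT on the log2 scale.

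Some members did not move with the rest. Pdk1 had 19.5, 11.9 and 8.61 FPKM in WT Th2 and 21.4, 14.8 and 14.2 FPKM in STAT6 KO, so it was higher in the knockout in each pair, at 0.36 ± 0.24 (limma, BH-adjusted p = 0.475). Myc had 167, 279 and 166 FPKM in WT and 222, 381 and 211 FPKM in STAT6 KO, also higher in each pair, at 0.40 ± 0.29 (limma, BH-adjusted p = 0.513). Pfkfb3 had 11.3, 34.2 and 30.9 FPKM in WT and 11.2, 30.6 and 29.6 FPKM in STAT6 KO. T cell markers summed to 1198, 790 and 638 FPKM in the WT Th2 libraries and to 1411, 825 and 763 FPKM in STAT6 KO. Of the genes of early T cell receptor response, 3 rose in STAT6 KO (Il2, Cd69, Jun) and none fell, and their part in these results was not tested.

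**Figure D3:**
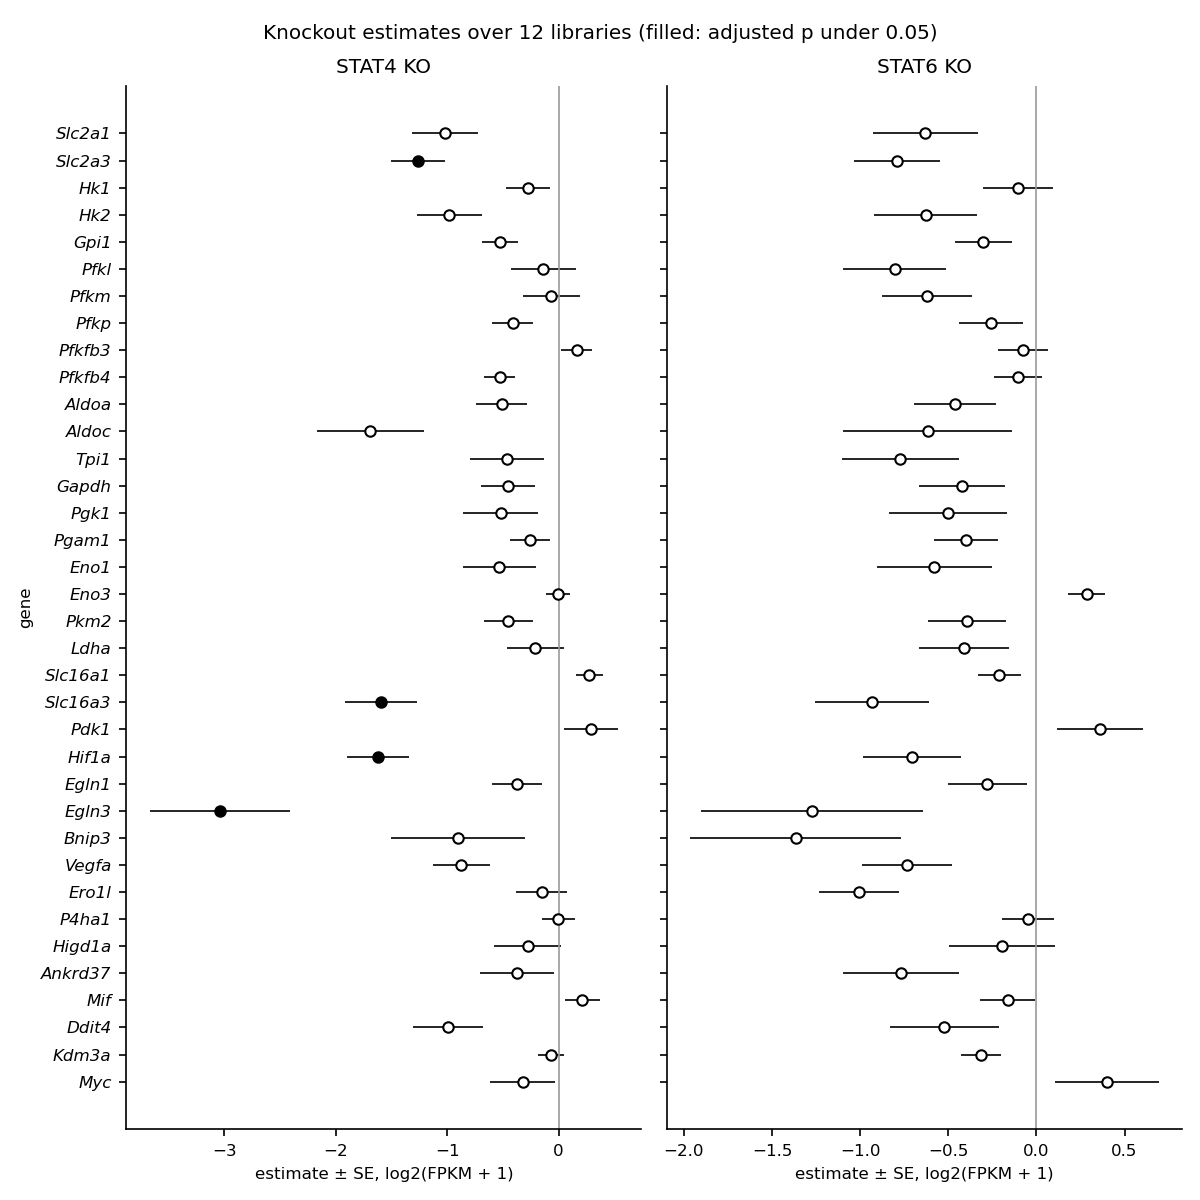
Estimates and standard errors for the 36 genes in STAT4 KO and STAT6 KO, as differences in log2(FPKM + 1) over 12 libraries, with the 4 called genes (Slc2a3, Slc16a3, Hif1a, Egln3) filled. The 2 panels have different scales. In STAT4 KO 32 and in STAT6 KO 33 of 36 estimates lie below 0.

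Without a vector and with the control vector, 9 members were at least 1.5-fold lower in both STAT4 KO pairs (4.57% of all genes) and 15 in both STAT6 KO pairs (3.99% of all genes). These knockouts have different controls. In both lists were Slc2a1, Slc16a3, Hk2, Hif1a, Egln3 and Vegfa, which is 66.7% of the STAT4 list and 40.0% of the STAT6 list. Over all genes, 99 were in both lists, 19.3% of 512 and 22.2% of 446. The rest of the STAT4 list were Slc2a3, Aldoc and Ddit4, an mTOR inhibitor gene. The rest of the STAT6 list were Pfkl, Aldoa, Tpi1, Gapdh, Pgk1, Pkm2, Ldha, Bnip3 and Ero1l, which are mainly enzymes from the middle and the end of the pathway. The difference between the 2 knockout effects was itself tested. It called 0 members (limma with BH adjustment; 3 at an unadjusted p under 0.05), where 3.3% of all genes were called. For Hif1a the difference was -0.91 ± 0.39 (limma, BH-adjusted p = 0.231) and for Egln3 -1.77 ± 0.89 (limma, BH-adjusted p = 0.3).

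The 6 genes lower in both knockouts, a set chosen after their values were seen, are shown by the 250 bases before their transcription start. These are part of the 300-base windows in which the HIF core was searched. Sequences are from RefSeq on GRCm38.p6, 5′ to 3′ on the gene's strand, with every ACGTG or GCGTG on either strand (CACGT or CACGC when it lies on the other strand) in capitals. They come from a newer build than the mm9 gene spans given above.
Slc2a1 (chr4:119108495-119108744, plus strand): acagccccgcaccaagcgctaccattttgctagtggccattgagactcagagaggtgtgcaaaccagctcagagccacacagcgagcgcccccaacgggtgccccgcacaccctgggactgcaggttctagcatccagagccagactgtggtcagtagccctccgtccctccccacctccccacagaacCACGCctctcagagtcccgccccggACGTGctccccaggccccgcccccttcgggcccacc
Hk2 (chr6:82774455-82774704, minus strand): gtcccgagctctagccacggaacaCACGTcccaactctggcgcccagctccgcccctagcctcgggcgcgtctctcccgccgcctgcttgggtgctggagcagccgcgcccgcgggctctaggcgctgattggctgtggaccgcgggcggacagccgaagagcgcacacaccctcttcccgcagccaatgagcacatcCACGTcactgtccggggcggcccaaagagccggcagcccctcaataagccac
Slc16a3 (chr11:120948817-120949066, plus strand): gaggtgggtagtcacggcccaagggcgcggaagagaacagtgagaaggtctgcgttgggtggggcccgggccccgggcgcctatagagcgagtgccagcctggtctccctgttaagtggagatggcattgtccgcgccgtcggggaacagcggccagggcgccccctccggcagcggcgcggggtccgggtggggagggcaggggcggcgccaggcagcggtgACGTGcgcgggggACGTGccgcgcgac
Hif1a (chr12:73907617-73907866, plus strand): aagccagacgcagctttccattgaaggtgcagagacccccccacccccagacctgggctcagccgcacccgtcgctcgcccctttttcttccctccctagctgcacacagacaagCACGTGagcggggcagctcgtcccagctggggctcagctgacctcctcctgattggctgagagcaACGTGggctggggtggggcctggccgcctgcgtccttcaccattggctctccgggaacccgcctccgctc
Egln3 (chr12:54203875-54204124, minus strand): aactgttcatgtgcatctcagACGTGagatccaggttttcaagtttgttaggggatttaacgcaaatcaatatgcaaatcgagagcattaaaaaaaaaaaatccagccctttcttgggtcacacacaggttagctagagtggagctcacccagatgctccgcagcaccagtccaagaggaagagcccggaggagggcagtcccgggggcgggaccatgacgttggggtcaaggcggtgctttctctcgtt
Vegfa (chr17:46032378-46032627, minus strand): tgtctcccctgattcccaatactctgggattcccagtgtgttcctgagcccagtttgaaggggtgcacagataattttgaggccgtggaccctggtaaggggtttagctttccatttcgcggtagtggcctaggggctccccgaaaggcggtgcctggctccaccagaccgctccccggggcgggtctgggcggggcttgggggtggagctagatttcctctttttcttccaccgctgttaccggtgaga

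The Slc16a3 promoter has both of its matches close to the start, 27 and 14 bases before it. Slc2a1 has them 61 and 36 bases before the start and Hk2 226 and 52 bases before it. Hif1a has 3 matches, of which 2 overlap in the palindrome CACGTG, also the core of Myc's binding site. Egln3 has 1 match, 229 bases before its start, and Vegfa none in the window shown, while another of its start windows held 2. Over the members, 34 of 36 were found in the RefSeq table (Pkm2 and Ero1l under the newer symbols Pkm and Ero1a), and Slc2a3 and Myc were not matched. Of their 50 start windows of 300 bases (250 before and 50 after the start), 40 held ACGTG or GCGTG, or 80.0%, against 43.8% of 32851 windows of all genes. The members' windows were richer in GC, with a median of 62.8% against 52.7%. Among windows with at least 60% GC the shares were 90.0% and 69.2%. Windows of 1 gene can overlap, and a match in letters is a description of the sequence, not a measured binding site.

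GATA3 was added to WT and STAT6 KO Th2 cells by vector. Slc2a3, Ero1l and Pfkm, the muscle-type phosphofructokinase gene, rose over both genotypes and no member fell. Over all genes, 3.2% were called higher and 0.317% lower, against 3 and 0 of 36 members, and 9 members were at an unadjusted p under 0.05, where 16.9% of all genes were. Gata3 itself went from 95.7 to 589 FPKM in WT and from 29.7 to 377 FPKM in STAT6 KO. Pfkm (chr15:97923020-97962878) had 4.09 FPKM with the control vector and 27.1 with the GATA3 vector in WT, and 3.36 and 9.59 FPKM in STAT6 KO. In the other 10 libraries of the fit it was between 2.72 and 4.81 FPKM, so both GATA3 libraries stood above all of those. The estimate was 1.81 ± 0.29 (limma, BH-adjusted p = 0.0179). Its share of the summed phosphofructokinase FPKM was 17.97% and 6.34% in the 2 GATA3 vector libraries and 2.25% to 8.322% in the other 12 of the 14 libraries, so the share in STAT6 KO lay within that range.

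Ero1l went from 165 to 463 FPKM in WT and from 82.7 to 348 FPKM in STAT6 KO, its highest levels anywhere, at 1.66 ± 0.26 (limma, BH-adjusted p = 0.0167). Slc2a3 went from 52.9 to 104 FPKM in WT and from 19.6 to 68.0 FPKM in STAT6 KO, at 1.35 ± 0.28 (limma, BH-adjusted p = 0.0445). It made up 63.86% and 51.89% of the summed Slc2a1 and Slc2a3 FPKM in these 2 libraries, against 40.32% and 29.18% in the matching control-vector cultures. Each of these genes was higher in both genotypes. Aldoc too was at least 1.5-fold higher in both, 4.31 to 8.20 and 3.82 to 13.2 FPKM, and Myc at least 1.5-fold lower in both, 279 to 166 and 381 to 211 FPKM, and neither was called (limma, BH-adjusted p = 0.367 and 0.409). By this measure 4.86% of all genes were higher and 1.37% lower. The calls of Ero1l and Pfkm were lost without either control-vector Th2 library and without 1 of the GATA3 libraries (STAT6 KO for Ero1l, WT for Pfkm), and that of Slc2a3 in 10 of 12 fits that left out a library. In the same libraries Mcpt8, a basophil marker, had 59.2 and 42.7 FPKM against at most 0.094 elsewhere, Cpa3 had 9.64 and 2.34 FPKM (10.2 in WT Th2 without a vector), Kit 0.328 and 1.10 FPKM and Fcer1a was listed at 0. T cell markers summed to 638 and 763 FPKM. The part of such cells in the GATA3 vector results was not tested.

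Set side by side, the pairs of the 2 genotypes were unlike in size. In STAT6 KO cells 15 members were at least 2-fold higher with the GATA3 vector than with the control vector (4.42% of all genes), and none was 2-fold lower (0.749%). The median was 0.82, against 0.05 over all genes. In WT cells 2 were higher (3.48% of all genes), Pfkm and Ero1l, and none was lower (0.989%). The median was 0.04, against -0.004 over all genes, with 19 members above 0 and 17 below, where 47.9% of all genes were above 0. For Hif1a the differences were 1.28 in STAT6 KO and 0.05 in WT, for Egln3 2.04 and 0.21, for Slc16a3 0.86 and -0.20, and for Pgk1, phosphoglycerate kinase, 1.38 and 0.20. The estimate over both genotypes draws on both pairs and, through the vector culture term shared by both lineages, on other libraries of the fit. Its member median of 0.33 turned to -0.15 without the STAT6 KO GATA3 vector library and to 0.93 without the WT GATA3 vector library.

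The interaction of STAT6 loss with the GATA3 vector, added after the data were seen, called 0 members (limma with BH adjustment; 0.0272% of all genes were called). At an unadjusted p under 0.05 there were 13 members, and 484 genes among the 11048. Of the members, 32 of 36 had an interaction above 0, where 54.3% of all genes had, with medians of 0.94 and 0.03. Egln1 had 1.20 ± 0.27 (limma, BH-adjusted p = 0.56) and Hif1a 1.39 ± 0.35 (limma, BH-adjusted p = 0.656). Pfkm went the other way, -1.18 ± 0.31 (limma, BH-adjusted p = 0.678). On simulated data, with 1 draw, this interaction test found 0 of 100 genes changed by 1 on the log2 scale. It found 5 of 100 changed by 2, so a count of 0 says little.

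T-bet added to Th1 cells called none of the members (limma with BH adjustment; none at an unadjusted p under 0.05), where 0.00905% of all genes were called and 3.61% were at an unadjusted p under 0.05. Estimates ran from -0.62 for Egln3 to 0.20 for Pgk1. In WT cells 35 of 36 members were lower with the T-bet vector than with the control vector, none by 2-fold in either direction (0.339% of all genes higher and 0.232% lower), with a median of -0.22 against -0.03 over all genes, of which 57.7% were below 0. In STAT4 KO cells the median was -0.04, again with no member past 2-fold (0.597% of all genes higher and 0.927% lower). Tbx21 went from 61.0 to 245 FPKM in WT and from 35.1 to 137 FPKM in STAT4 KO. With the T-bet vector, Hif1a (71.5 FPKM), Egln3 (14.5 FPKM) and Slc16a3 (23.8 FPKM) in STAT4 KO remained below the WT values of 180.1, 67.3 and 58.7 FPKM. The interaction of STAT4 loss with the T-bet vector called 0 members (limma with BH adjustment; 0 at an unadjusted p under 0.05, and 0.0272% of all genes called), with a median of 0.16. On simulated data, with 1 draw, this interaction test found 2 of 100 genes changed by 1 and 39 of 100 changed by 2 on the log2 scale. Both interaction tests had the same standard error for each member. The gap to the 5 of 100 found for STAT6 and GATA3 is thus not a difference between the tests. Either test could miss most changes of this size.

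T-bet KO can be set only against WT Th1 replicate 2, the other library that stood apart, with no test. Of 35 members measured in both, Myc having a failed estimate, 30 were lower in T-bet KO, where 53.1% of all genes were. At least 2-fold lower was 1 (1.87% of all genes), Bnip3 at 8.78 against 21.1 FPKM, with none 2-fold higher (1.82%). The median was -0.48, against -0.02 over all genes. Hif1a had 162 against 161 FPKM, and Egln3 was higher in T-bet KO, 490.4 against 303 FPKM. Against WT Th1 replicate 1 the median was 0.49 (-0.02 over all genes), so the direction depends on which WT library is used.

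Between Th2 and Th1 cells 1 member was called, Kdm3a, at 0.52 ± 0.13 higher in Th2 (limma, BH-adjusted p = 0.049), and none was lower, where 1.96% of all genes were called higher and 6.43% lower. It had 24.1 and 29.8 FPKM in WT Th1 without a vector and with the control vector and 37.8 and 39.8 FPKM in WT Th2. The call was lost in 11 of 12 fits that left out a library. Ero1l just missed, at 1.01 ± 0.26 (limma, BH-adjusted p = 0.0502), and was at least 1.5-fold higher in Th2 in both WT pairs (2.56% of all genes), while Egln3 was at least 1.5-fold lower in both (5.96% of all genes). Myc had 609 FPKM in WT Th1 replicate 1 and 167 in WT Th2, and 381 and 279 with the control vector. Its estimate was -1.04 ± 0.33 (limma, BH-adjusted p = 0.0946). Without a vector 7 members were at least 2-fold higher in Th2 (7.95% of all genes), led by Bnip3 at 6.00 against 58.7 FPKM, and Myc was 2-fold lower (6.54%). With the control vector none was higher (1.74%), Aldoc was 2-fold lower at 13.4 against 4.31 FPKM (4.7%), and Bnip3 had 27.8 and 30.6 FPKM. Epas1, which makes HIF-2 alpha and is no member of the 36, had 44.6 FPKM in WT Th2 against 0.375 in WT Th1 replicate 1, and 21.5 against 0.25 with the control vector. It was 4.34 ± 0.39 higher in Th2 (limma, BH-adjusted p = 0.0014) and fell by 4.20 ± 0.35 on the log2 scale in STAT6 KO (limma, BH-adjusted p = 0.00138).

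Vector culture was the widest difference. Against cultures without a vector, 20 members were higher and 4 lower (limma with BH adjustment), but so were 36.4% and 16.1% of all genes, and the member median was 0.68 against 0.16. The virus, the stimulation before it and, by 1 of the labels, the day of culture change with the vector in both lineages, and for the Th2 vector cultures no restimulation is given, so these cannot be told apart. Under upper-quartile scaling the median of all genes fell to 0.01 and that of the members to 0.49. All genes then split into 2987 higher and 2612 lower in place of 4018 and 1783. Members called were 15 higher and 4 lower in place of 20 and 4. For 9 of the 36 members all 8 vector libraries lay above all 4 libraries without a vector, a share near the 24.1% of all genes. No member had all vector libraries below (6.02% of all genes).

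Those 9 members were Slc2a3, Pfkl, Pfkp, Pfkfb3, Aldoa, Pgam1, Egln1, P4ha1 and Mif. Pfkfb3, the main maker of fructose-2,6-bisphosphate in growing cells (chr2:11393058-11475556), had 11.2 to 15.2 FPKM without a vector and 25.1 to 34.2 (median 30.7) with one. Its estimate was 1.22 ± 0.12 (limma, BH-adjusted p = 0.000205). Mif had 199 to 258 FPKM and 438 to 636 (median 549), at 1.24 ± 0.13 (limma, BH-adjusted p = 0.000275). P4ha1, a collagen prolyl hydroxylase gene, had 13.4 to 19.4 FPKM and 21.6 to 37.8 (median 33.1), at 1.12 ± 0.13 (limma, BH-adjusted p = 0.000335). For all 3 genes the vector libraries lay together above the rest. Pfkl had the largest estimate, 1.71 ± 0.25, from 9.38 to 33.3 FPKM and then 40.8 to 67.1 (limma, BH-adjusted p = 0.00104). Pgam1, phosphoglycerate mutase, had 62.2 to 117 FPKM and 169 to 255 FPKM, at 1.26 ± 0.16 (limma, BH-adjusted p = 0.000467).

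Pair by pair, 15 members in WT Th1, 14 in STAT4 KO Th1, 4 in WT Th2 and 15 in STAT6 KO Th2 were at least 2-fold higher with the control vector than without one, where 12.8%, 8.52%, 10.0% and 8.43% of all genes were. At least 2-fold lower were 0, 2, 1 and 0 members, where 4.79%, 4.98%, 7.67% and 5.2% of all genes were. In every pair 11 members were at least 1.5-fold higher (11.3% of all genes) and none lower (3.25%).

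By role, 3 of 4 transporters rose (Slc2a3, Slc16a1, Slc16a3), 10 of 16 enzymes rose and 2 fell, and 5 of 9 other hypoxia-response genes rose (Mif, P4ha1, Ero1l, Vegfa, Ankrd37). Among the enzymes, Aldoa had 241 to 470 FPKM without a vector and 526 to 1117 with one, at 1.07 ± 0.20 (limma, BH-adjusted p = 0.003), and Pfkp, the platelet-type phosphofructokinase gene, 35.3 to 60.5 and 70.7 to 109.7 FPKM, at 0.80 ± 0.16 (limma, BH-adjusted p = 0.00382). The groups overlapped for the rest: Tpi1 (72.6 to 229 and 175 to 374 FPKM), Pkm2 (272 to 538 and 482 to 1125 FPKM), Gapdh (72.4 to 135 and 103 to 238 FPKM), Gpi1 (59.0 to 98.5 and 79.1 to 160.2 FPKM), Hk1 (23.2 to 45.1 and 37.0 to 87.0 FPKM) and Hk2 (9.29 to 44.6 and 22.2 to 50.8 FPKM), with estimates from 0.44 (Gpi1) to 1.30 (Tpi1). The transporter Slc16a1 had 37.3 to 47.6 and 41.3 to 88.0 FPKM, at 0.70 ± 0.10 (limma, BH-adjusted p = 0.00108), and Ankrd37, an ankyrin repeat gene, 3.60 to 16.7 and 10.8 to 17.2 FPKM, at 1.16 ± 0.28 (limma, BH-adjusted p = 0.00985). Aldoc and Eno3 fell by 1.20 and 0.34 on the log2 scale (limma, BH-adjusted p = 0.0409 and 0.016). Egln1, at 7.79 to 14.8 and 17.6 to 30.3 FPKM, rose by 0.99 ± 0.19 while Hif1a fell by 0.81 on the log2 scale (limma, BH-adjusted p = 0.0037 and 0.0231). Hif1a had 439, 134, 267 and 106 FPKM without a vector and 228, 63.1, 157 and 77.0 FPKM in the matching control-vector cultures, lower in each. Pfkfb4 fell by 0.40 on the log2 scale (limma, BH-adjusted p = 0.0232). Several of these calls hung on single libraries. Of 12 fits that left out a library, the calls of Aldoc and Gapdh were lost in 8 and that of Hk1 in 7. Those of Hif1a, Hk2 and Gpi1 were lost in 6 each, Pfkfb4 in 5, Pkm2 in 4 and Eno3 in 3. With all 14 libraries 11 members were called higher and 0 lower. Ldha, Slc2a1, Pdk1, Egln3 and Myc were not called. T cell markers moved as well: 4 of 6 fell (Cd3g, Cd3d, Cd2, Cd4), and their sum was 1198 to 1411 FPKM in the 4 libraries without a vector and 638 to 825 in the 8 with one. Of 20 genes of early T cell receptor response, 5 rose and 5 fell. The part of either in these results was not tested.

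**Figure D4:**
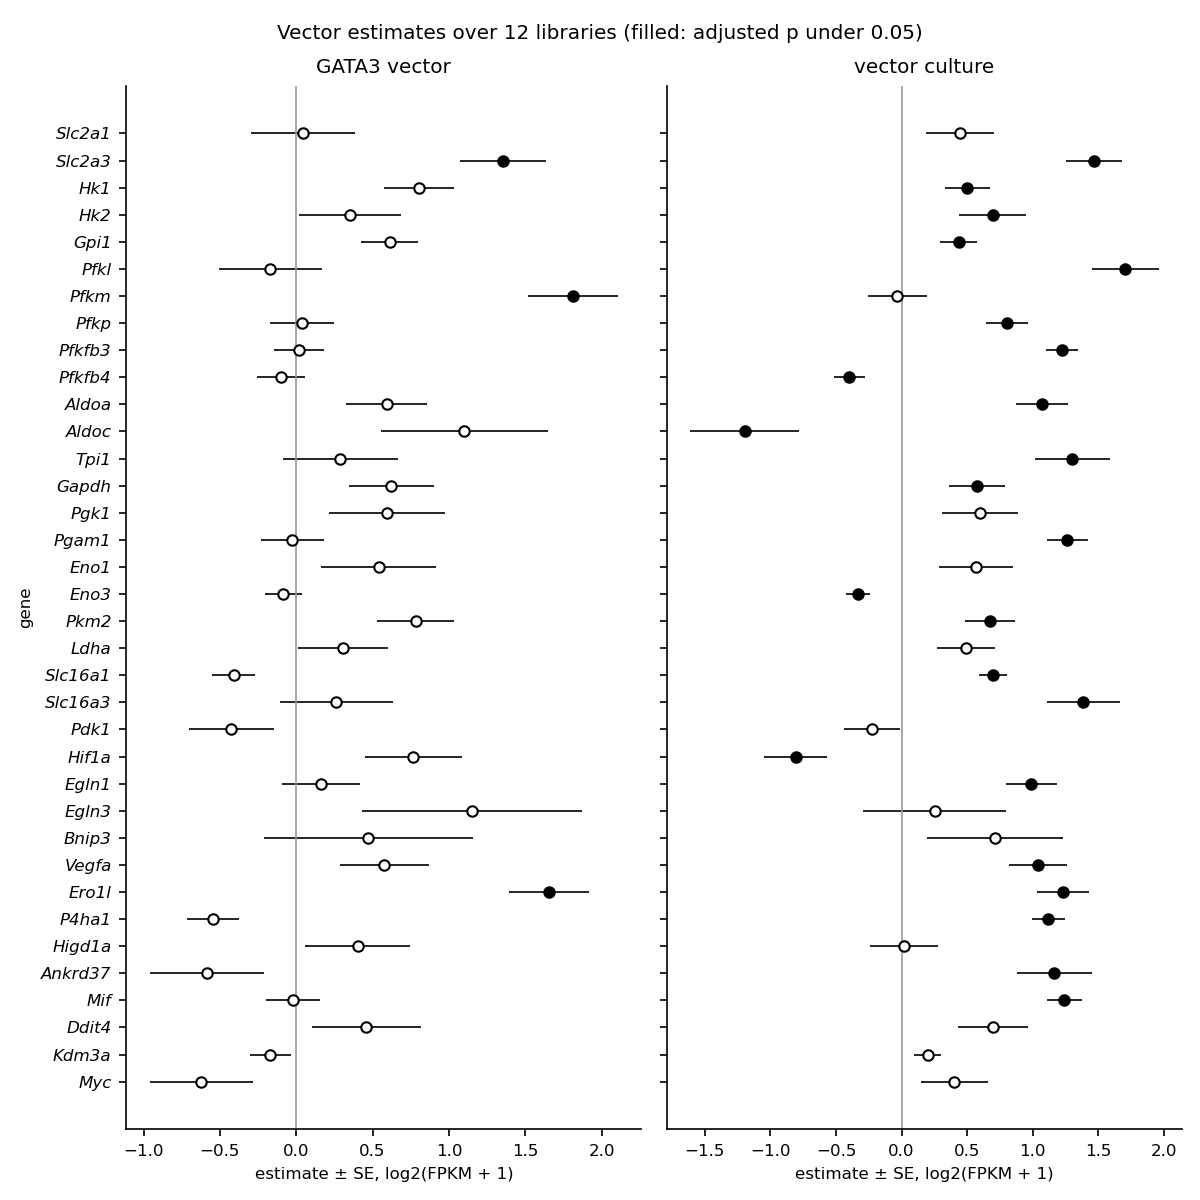
Estimates and standard errors for the 36 genes with the GATA3 vector and in vector culture, as differences in log2(FPKM + 1) over 12 libraries, with called genes filled. The 2 panels have different scales. With the GATA3 vector 3 genes are called, all higher (Slc2a3, Pfkm, Ero1l), and in vector culture 24 are, 20 higher and 4 lower (Pfkfb4, Aldoc, Eno3, Hif1a).

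**Figure D5:**
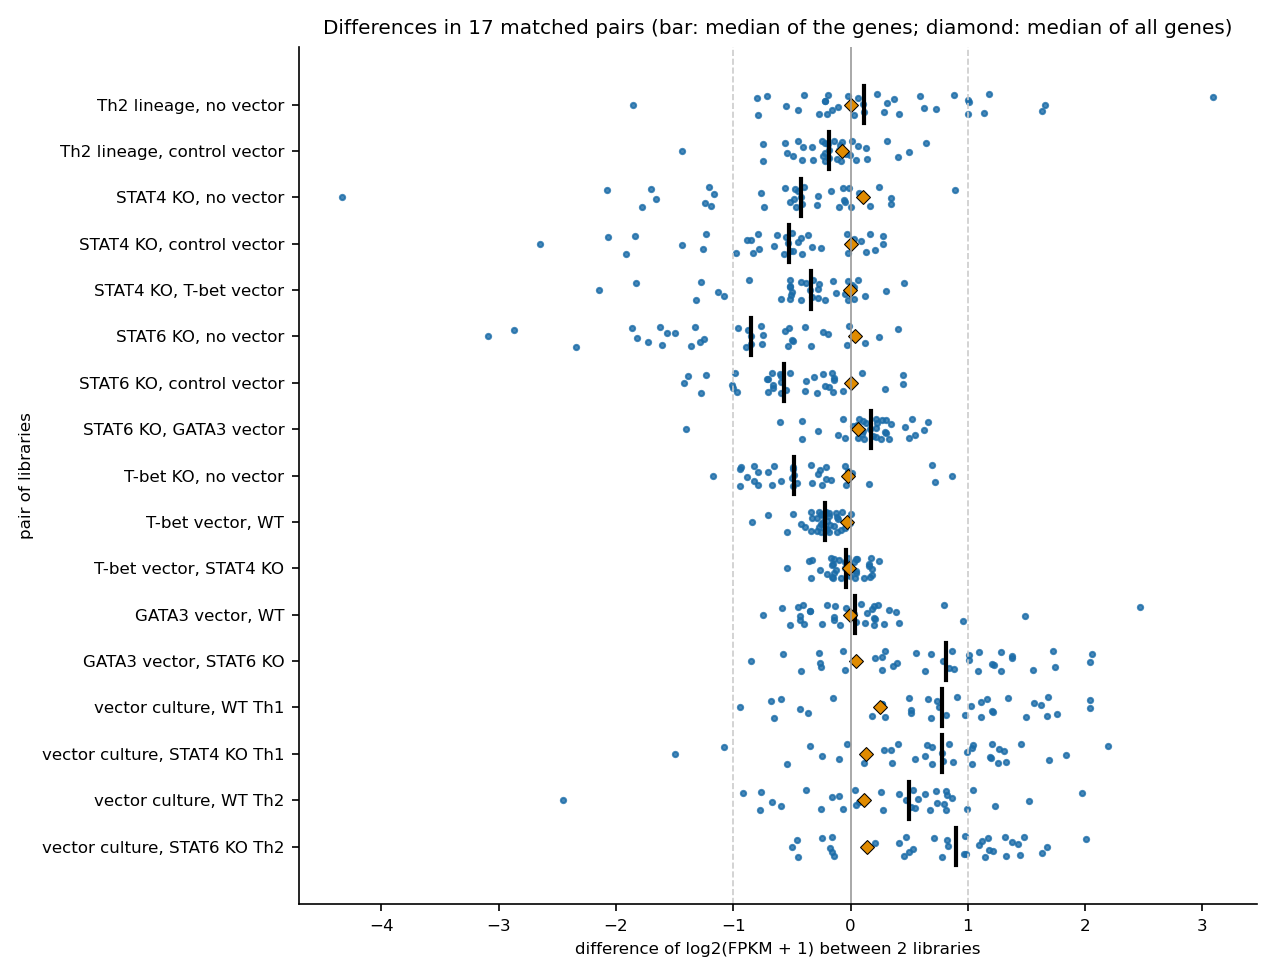
Differences in log2(FPKM + 1) in the 17 matched pairs, 1 library against 1, with 1 point per member, a bar at the members' median and a diamond at the median of all genes. The members' medians lie at -0.85 and -0.57 for STAT6 KO without a vector and with the control vector, at 0.18 with the GATA3 vector, and at 0.50 to 0.90 for vector culture.

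Genes of neighbouring pathways were counted in lists. Beside them, the calls over all genes were 1.66% up and 3.0% down in STAT4 KO, 2.62% and 1.52% in STAT6 KO, 3.2% and 0.317% with the GATA3 vector, and 36.4% and 16.1% in vector culture, and no test compared a list with the members. Of 15 tested oxygen-sensing genes outside the members, Cited2, a competitor of HIF for its coactivators, and Epas1 fell in STAT6 KO, Arnt2 rose with the GATA3 vector, and none was called in STAT4 KO. Of 29 tested other HIF targets, 2 fell in STAT4 KO: Bhlhe40, a transcription factor gene, by 1.54 and Hmox1 (heme oxygenase 1) by 1.43 on the log2 scale (limma, BH-adjusted p = 0.0229 and 0.0403). In STAT6 KO 3 fell (Stc2, Hmox1, Rbpj) and 1 rose (Rora). Of 29 genes of mitochondrial pyruvate entry and the TCA cycle, 0 were called in either knockout, Pdp1, a phosphatase that activates pyruvate dehydrogenase, rose with the GATA3 vector by 2.03 (limma, BH-adjusted p = 0.0326), and in vector culture 9 rose and 4 fell, shares near those of all genes. Of 7 pentose phosphate genes, G6pdx, which makes the first enzyme of that path, rose with the GATA3 vector by 1.33 (limma, BH-adjusted p = 0.0199). Of 23 Myc and mTOR partners, 16 rose and 2 fell in vector culture, led by Cad, a pyrimidine synthesis gene, at 2.49. In STAT4 KO 2 of them rose, Cad and Fbl, and Mxd1, which makes a Myc antagonist, fell. Of 5 genes of the serine branch, Shmt1, a one-carbon enzyme gene, rose in STAT4 KO by 0.89, and 4 rose in vector culture. Of 7 glycogen genes, Pygl (liver glycogen phosphorylase) rose in STAT6 KO by 1.45, and of 4 hexosamine genes 2 rose in vector culture. Isozymes of other tissues passed the filter for 3 of 19 genes, and 0 were called in any term (limma with BH adjustment).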

How the data were processed

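Gene tables of 14 RNA libraries were used. The labels' protocols name mirVana total RNA, TruSeq libraries and single reads on an Illumina HiSeq instrument. The deposited values are FPKM, computed by the authors with Cufflinks per the file headers. The submitters' processing notes name TopHat, Cufflinks and SICER and the build mm9. The annotation and the tool versions were not given in the sources used here. No read counts are in the tables, so depth was estimated from the interval listed around each FPKM.

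Linear models were fitted in R 4.3.3 with limma 3.58.1 (eBayes with a trend) to log2(FPKM + 1), a pseudocount of 1. The 11048 genes reached 1 FPKM in 2 or more libraries and had no failed estimate. Additive terms stood for vector culture, Th2 lineage, the GATA3 and T-bet vectors and the STAT6 and STAT4 knockouts over 12 libraries, with 5 residual degrees of freedom. As 12 of 13 groups hold 1 library, the spread comes from departures from additivity. Calls are at a Benjamini-Hochberg adjusted p under 0.05. T-bet KO and the other WT Th1 library (replicate 2) were left out of this fit because they stood apart. Matched pairs compare 1 library with 1 and have no test. They were counted past 2-fold and past 1.5-fold in every pair. Tested on simulated data over 11048 genes, with 100 genes changed by 1 and 100 by 2 on the log2 scale, the fit called 74 and 93 for lineage, 88 and 99 for vector culture, 72 and 93 with GATA3, 69 and 98 with T-bet, 83 and 99 without STAT4, and 78 and 99 without STAT6.

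The members, gene lists, tests and settings were chosen with earlier results of these data known. Named are members called in any term, members past 1.5-fold in every pair of a term (up to 8 by size), a fixed set of control points of the pathway (Slc2a1, Slc2a3, Hk2, Pfkfb3, Pfkfb4, Ldha, Slc16a3, Pdk1, Hif1a, Egln3, Myc) and at most 4 called genes of each other list. Members named beyond that rule were chosen after their values were seen. The interaction fit and the difference between the knockout effects were added after seeing the data. Alternatives were other pseudocounts, filters and scalings, no trend, all 14 libraries, the libraries without a factor vector, and each library left out in turn. Python 3.11.15 with pandas 2.3.3, numpy 2.4.6 and matplotlib 3.10.9 was used for tables and figures.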

Additional observations from a re-analysis of the deposited data

How the results depend on the processing

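With 5 residual degrees of freedom, 1 library often decided a call, and no called estimate changed sign under any alternative run. Counts are members called (limma with Benjamini-Hochberg adjustment), then genes of all tested. Lineage, with 1 member and 926 genes, gave 2 members with a pseudocount of 0.1 or 0.01 or with upper-quartile scaling or quantile normalization, and 0 with all 14 libraries (357 genes), without factor-vector libraries (400), with no filter (500), without a trend and with interactions (368). STAT4 KO, with 4 and 514, gave 0 with all 14 libraries (81), 1 without factor-vector libraries (86), 0 with no filter (142) and 1 with interactions (79). STAT6 KO, with 0 and 457, gave 1 without factor-vector libraries (279), with a pseudocount of 0.1 or 0.01, and with upper-quartile scaling, quantile normalization or FPKM shares, while all genes fell to 107 with all 14 libraries, 209 with no filter and 245 with interactions. The GATA3 vector, with 3 and 388, gave 1 with all 14 libraries (117) and 1 with interactions (107), and 256 genes with a pseudocount of 0.01 and 207 at 5 FPKM or more. Vector culture, with 24 and 5801, gave 11 with all 14 libraries (3505), 17 with no filter (6414), 19 with upper-quartile scaling (5599) and 27 with FPKM shares (6025). The T-bet vector gave 0 members throughout. Leaving out 1 library at a time gave 0 to 1 members for lineage, 0 to 6 for STAT4 KO, 0 to 4 for STAT6 KO (4 without either GATA3 vector library), 0 to 4 for the GATA3 vector and 15 to 24 for vector culture, and 313 to 684, 12 to 737, 112 to 736, 143 to 529 and 4699 to 6013 genes, and 0 to 5 for the T-bet vector. Of the 24 vector culture calls 15 held in all 12 of these fits. Past 1.5-fold in place of 2-fold, 237 member differences in the 17 pairs stood against 121. For vector culture the median of all genes was 0.16, 0.01 with upper-quartile scaling and 0.25 with FPKM shares. The member median was 0.68, 0.49 and 0.80 in the same order. The causes were not tested. The fit without factor-vector libraries was not run for the vector terms. By replicate number no paired analysis was possible because the groups compared share at most 1 number. A block for each matched WT and knockout pair (1 lineage in 1 culture), added after the data were seen, gave 3 members and 620 genes in STAT4 KO and 0 and 486 in STAT6 KO, with 4 residual degrees of freedom. The vector terms were not read from this block fit. In the main fit both lineages share the vector culture term, so the T-bet and GATA3 vector terms also draw on libraries of the other lineage. The tables hold no read counts, so no count test was run.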
